A study of Mus musculus with 12 samples.

Results

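A set of 32 genes was followed that make cholesterol, make and modify fatty acids, control both pathways or export sterols. They were chosen by gene symbol in the array annotation, and the probe set with the highest mean over the 12 arrays stood for each gene. Of the 32 genes, 29 had a probe set of their own, among 22180 genes with a named probe set. All 29 were bright enough to be tested, among 18652 tested genes, and their lowest value on any array was 7.68, above the 25th percentile of every array (at most 6.04). Acat2, which makes acetoacetyl-CoA, had no listed probe set. Idi1, the isopentenyl diphosphate isomerase, and Scd2, a stearoyl-CoA desaturase, shared theirs with another gene. These 3 genes were not analysed here.

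The cells, called MP, model MYC-driven Group 3 medulloblastoma of the mouse, a tumour of the cerebellum. They were taken from the cerebella of NSG mice, which are immunodeficient, and were plated as single cells in neurocult medium with a proliferation supplement. The 4 groups were 0.00025% DMSO, the solvent, for 6 h or 12 h, and 25 nM LBH589 for 6 h or 12 h. LBH589 is panobinostat, which inhibits histone deacetylases, and the study asked how such inhibition kills these cells. Every group held 3 arrays, 1 from each of the tumours MP525, MP567 and MP570. The labels do not say whether each tumour came from a single mouse. In fits without tumour, p-values measure the spread between these 3 tumours only. In fits with tumour, they measure the spread left after the tumour terms are removed, over cultures of these 3 tumours only. Values are log2 expression values, for which the number of arrays limits the precision. RNA was taken from whole cultures, so fewer cells of a type and less RNA per cell cannot be told apart.

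Cholesterol is built from acetyl-CoA. The mevalonate pathway makes farnesyl diphosphate, squalene synthase commits it to sterols, and a chain of endoplasmic reticulum enzymes turns lanosterol into cholesterol. When membrane sterol is low, SCAP escorts the transcription factors SREBP-1 (Srebf1) and SREBP-2 (Srebf2) to the Golgi, where they are cleaved. The cleaved factors switch on sterol and fatty acid synthesis, and INSIG1 holds SCAP back when sterol is plentiful. Surplus sterol yields oxysterols that activate LXR receptors, which raise the exporters ABCA1 and ABCG1. In the brain, cholesterol is made locally, because lipoproteins do not cross from blood.

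The promoters of the genes called lower at both times, in the fit without tumour as block, are shown because these genes moved together. With tumour as block, further genes were called lower at both times, and their promoters are not shown. RefSeq windows (build GRCm38.p6) run from 250 bases before to 50 bases after the start of the gene, and 24 of the 32 genes had one. Each is written 5′ to 3′ on the strand of the gene, and capitals mark the motifs searched on both strands: CACCCCAC (the core of the sterol response element), CCAAT (bound by NF-Y), CACGTG (an E-box) and GGGCGG (a GC box). On the opposite strand CCAAT reads ATTGG and GGGCGG reads CCGCCC.
Hmgcs1, chr13:119690101-119690400, plus strand: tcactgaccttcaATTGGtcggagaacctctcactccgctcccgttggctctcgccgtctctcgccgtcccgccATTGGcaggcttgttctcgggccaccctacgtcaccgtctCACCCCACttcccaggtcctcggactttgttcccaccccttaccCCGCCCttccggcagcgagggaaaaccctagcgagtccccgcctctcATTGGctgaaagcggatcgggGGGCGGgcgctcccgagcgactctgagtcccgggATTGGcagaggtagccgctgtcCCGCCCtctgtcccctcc
Ebp, chrX:8193463-8193762, minus strand: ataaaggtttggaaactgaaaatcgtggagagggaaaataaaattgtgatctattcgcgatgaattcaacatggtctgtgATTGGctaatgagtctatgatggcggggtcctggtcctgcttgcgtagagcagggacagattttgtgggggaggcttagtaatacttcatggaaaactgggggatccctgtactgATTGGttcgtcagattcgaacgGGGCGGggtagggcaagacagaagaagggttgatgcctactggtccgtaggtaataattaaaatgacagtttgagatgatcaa
Fasn, chr11:120824498-120824797, minus strand: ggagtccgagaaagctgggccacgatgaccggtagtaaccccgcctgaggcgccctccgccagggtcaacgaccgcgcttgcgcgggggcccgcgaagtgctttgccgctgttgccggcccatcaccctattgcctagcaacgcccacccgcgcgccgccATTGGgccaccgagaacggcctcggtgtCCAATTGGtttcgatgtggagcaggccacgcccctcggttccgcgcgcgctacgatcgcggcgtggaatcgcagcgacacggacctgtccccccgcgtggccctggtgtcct
Elovl6, chr3:129532136-129532435, plus strand: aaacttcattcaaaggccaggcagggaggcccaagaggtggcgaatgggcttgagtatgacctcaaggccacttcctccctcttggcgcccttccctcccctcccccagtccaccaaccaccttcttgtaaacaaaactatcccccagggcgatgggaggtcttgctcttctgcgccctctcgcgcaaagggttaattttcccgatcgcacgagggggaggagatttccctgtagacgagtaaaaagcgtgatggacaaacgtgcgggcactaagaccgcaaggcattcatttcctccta
Fads2, chr19:10101454-10101753, minus strand: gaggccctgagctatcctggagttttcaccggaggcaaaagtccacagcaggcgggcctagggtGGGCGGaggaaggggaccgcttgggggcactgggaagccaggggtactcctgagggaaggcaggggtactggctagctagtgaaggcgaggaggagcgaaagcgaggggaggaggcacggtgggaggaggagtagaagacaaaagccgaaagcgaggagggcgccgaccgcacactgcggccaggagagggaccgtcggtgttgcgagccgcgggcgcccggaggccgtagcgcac

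The Hmgcs1 window held the sterol element core 1 time, starting at -136 from the start of the gene, together with CCAAT 4 times and GGGCGG 3 times. Ebp had 2 CCAAT and 1 GGGCGG, Fasn 3 CCAAT, Fads2 a single GGGCGG, and the Elovl6 window none of the 4 motifs. Over the 24 genes with a window, CCAAT was found in 19 (79.2%, against 41.1% of 27025 genes with a window and 42.3% of 17492 protein-coding ones). GGGCGG was found in 20 (83.3%, against 38.2% and 49.2%), CACGTG in 5 (20.8%, against 8.09% and 8.91%) and CACCCCAC in 2, Hmgcs1 and Acat2 (8.33%, against 3.3% and 3.33%). A gene counted where any of its windows held the motif, and a match is only a description of the letters. Of 14 genes with a window that were called lower at 12 h in a fit with tumour as block, 11 had CCAAT, all but Acaca, Elovl6 and Fads2. Of 8 tested genes with a window that were not called lower, 7 had it.

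LBH589 lowered part of the sterol and fatty acid synthesis genes and raised the exporter gene Abcg1. Differences are LBH589 minus DMSO on the log2 scale with their SE. Calls required a limma adjusted p under 0.05, by Benjamini-Hochberg over all 18652 tested genes. At 6 h, 5 of the 29 genes fell: Hmgcs1, Ebp, Fasn, Elovl6 and Fads2. The background was 7.31% of all tested genes called lower. One gene, Abcg1, rose (8.49% of all genes called higher). At 12 h, 10 fell (9.07% of all genes): the same 5 and Fdft1, Msmo1, Sc5d, Acaca and Scd1. Abcg1 was again the 1 gene that rose (9.13%). At these shares, 2.12 of 29 genes would be lower and 2.46 higher at 6 h, and 2.63 and 2.65 at 12 h. The count of higher genes thus lies below the background. The median change of the 29 genes was -0.17 at 6 h and -0.41 at 12 h, beside -0.02 and 0.01 for all tested genes.

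With the tumour as a block, which removes the tumours' own levels from the spread, 13 genes were called lower at 6 h (16.0% of all genes) and 20 at 12 h (18.5%). Tm7sf2, Abca1 and Abcg1 were called higher at both times (18.0% and 18.6% of all genes). At these shares, 5.22 and 5.39 of 29 genes would be higher and 4.64 and 5.37 lower, so the higher count is again below the background. With the tumour as a random block instead, which treats the levels of the tumours as draws from 1 spread, 11 were called lower at 6 h and 14 at 12 h, and 3 and 2 higher. Of all 18652 tested genes, the random block called 5493 at 6 h and 6087 at 12 h. These were not split by direction, so the higher and lower counts have no background of their own. The 12 h calls not made with the random block were Pmvk (0.081), Mvd (0.142), Sqle (0.185), Nsdhl (0.0621), Hsd17b7 (0.256), Fads1 (0.182) and Abca1 (0.084), and the 6 h ones Lss (0.0997) and Stard4 (0.103), by limma adjusted p. Of the 16 and 23 calls made with the fixed block, 9 and 16 stayed when each tumour in turn was left out. Those lost were Lss, Tm7sf2 and Abca1 at both times, Msmo1, Sc5d, Stard4 and Acaca at 6 h, and Pmvk, Mvd, Sqle and Fads1 at 12 h. Single arrays moved the 6 h median. Without the LBH589 6 h array of MP567 it was -0.01, and without the DMSO 6 h array of MP567 -0.39. The 12 h median was -0.24 without the LBH589 12 h array of MP567.

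**Figure D1:**
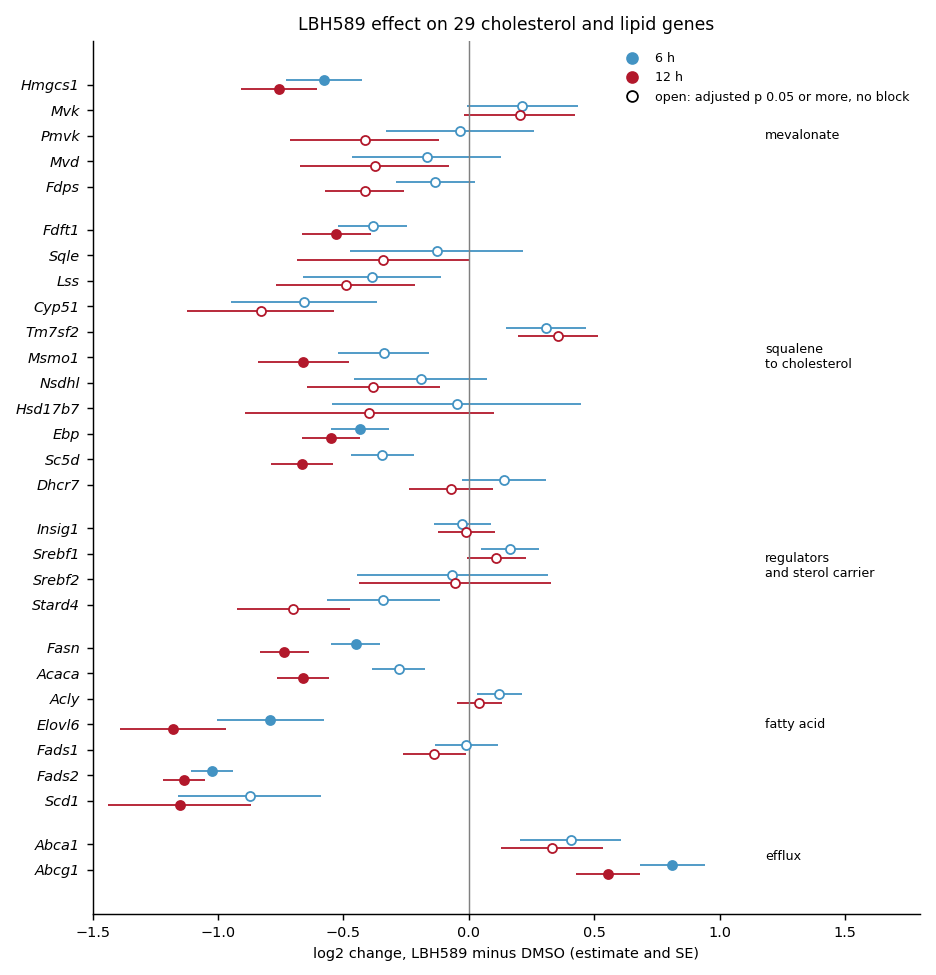
Log2 change (LBH589 minus DMSO, x axis, point and SE) of 29 genes grouped by role, at 6 h (blue) and 12 h (red), n = 3 arrays per group. Filled points were called without the block: 5 lower genes at 6 h and 10 at 12 h lie left of 0, and Abcg1 lies right of it at both times.

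The mevalonate pathway had 5 tested genes. Only Hmgcs1, which encodes HMG-CoA synthase, fell without the block, at both times, and the median change of the 5 genes was -0.13 at 6 h and -0.41 at 12 h. Array values are given in the order MP525, MP567 and MP570 throughout. Hmgcs1 had 12.24, 12.16 and 12.31 in DMSO at 6 h and 11.84, 11.39 and 11.74 in LBH589. Its 12 h values were 12.39, 12.49 and 12.29 in DMSO against 11.95, 11.34 and 11.61. The groups did not overlap at either time, and MP567 was the lowest LBH589 array both times. The change was -0.58 ± 0.15 at 6 h (1.49-fold lower, limma adjusted p = 0.0233) and -0.76 ± 0.15 at 12 h (1.69-fold lower, limma adjusted p = 0.0051). The 6 h call was lost on omitting the DMSO array from MP525 (0.062), the one from MP570 (0.0711) or the LBH589 array from MP567 (0.0793), and without MP525 (0.0591) or MP570 (0.201) as a whole. Without MP570, the 12 h call was lost too (0.0859). With the block, both calls stayed without each tumour.

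The next enzymes, which turn mevalonate into farnesyl diphosphate, moved less. Pmvk, Mvd and Fdps had 12 h changes of -0.42, -0.38 and -0.41 that passed the test with the block (limma adjusted p = 0.00868, 0.0389 and 2.95e-05) and not without it (0.391, 0.449 and 0.0942). Without MP567 as a whole, Fdps was called without the block too (0.00648). Fdps, the farnesyl diphosphate synthase, had 12 h changes of -0.39, -0.51 and -0.34 in the 3 tumours, a narrow range. Their 6 h changes of -0.03, -0.17 and -0.13 were called in neither fit, and Mvd had 0.30 in MP567 against -0.27 and -0.54 in the other tumours. Mvk, the mevalonate kinase, had 0.21 and 0.20 and was called in neither fit. The 6 h median of the 5 genes was 0.13 without the DMSO 6 h array of MP570, so its sign rested on single arrays, and the 12 h median was -0.24 without the LBH589 12 h array of MP567. With the block, 4 of the 5 genes were called lower at 12 h and 1 at 6 h. At the shares of all genes called with the block, 0.925 of 5 would be lower at 12 h and 0.8 at 6 h. The 6 h count thus lies near the background. Without the block, 0.365 would be lower at 6 h and 0.454 at 12 h, beside the 1 gene found.

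From squalene to cholesterol, 11 genes were tested, with a median change of -0.34 at 6 h and -0.49 at 12 h. Ebp fell at both times and Fdft1, Msmo1 and Sc5d at 12 h, and none rose without the block. With it, 6 were called lower at 6 h and 9 at 12 h, and Tm7sf2 was called higher at both times. At the shares of all genes without the block, 0.804 of 11 would be lower at 6 h and 0.998 at 12 h. The 1 lower gene at 6 h lies near that background. With the block, 1.76 and 2.04 would be lower and 1.98 and 2.05 higher, so the 1 higher gene lies below the background. The 12 h median was -0.20 without the LBH589 12 h array of MP567, and at 6 h it was -0.14 without the LBH589 6 h array of MP567.

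Ebp encodes the isomerase that shifts the sterol ring double bond. It had 10.07, 10.004 and 10.09 in DMSO at 6 h and 9.61, 9.52 and 9.73 in LBH589. At 12 h the values were 10.27, 10.10 and 10.23 against 9.79, 9.48 and 9.68. All LBH589 arrays lay below all DMSO arrays, and the tumours lay close together. The change was -0.44 ± 0.12 at 6 h (limma adjusted p = 0.025) and -0.55 ± 0.12 at 12 h (limma adjusted p = 0.00676). Without any of 5 arrays, all 3 DMSO 6 h arrays and the LBH589 6 h arrays of MP525 and MP567, the 6 h call was lost (adjusted p up to 0.0823). Leaving out MP525, MP567 or MP570 as a whole also ended it (0.163, 0.072 and 0.165), and the 12 h call was lost without MP525 (0.0559) or MP570 (0.101).

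Sc5d encodes the desaturase that acts next to EBP in the chain. Its values were 11.26, 11.22 and 11.55 in DMSO and 11.02, 10.86 and 11.12 in LBH589 at 6 h. They were 11.36, 11.34 and 11.50 in DMSO and 10.89, 10.54 and 10.77 in LBH589 at 12 h. The groups were apart at both times, and the gap was wider at 12 h. Sc5d fell by 0.66 ± 0.12 at 12 h (1.59-fold lower, limma adjusted p = 0.00357). Its 6 h change of -0.34 ± 0.12 was called with the block only (limma adjusted p = 0.00363, against 0.0863). Without MP570 the 12 h call was lost (0.0525).

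Fdft1, squalene synthase, stands at the branch point to sterols. At 6 h it had 12.37, 12.34 and 12.79 in DMSO and 11.95, 12.07 and 12.32 in LBH589. By 12 h the values were 12.52, 12.45 and 12.52 against 12.03, 11.75 and 12.13. The groups did not overlap, with a narrow gap at 6 h and a wide one at 12 h. The change at 12 h was -0.53 ± 0.14 (1.44-fold lower, limma adjusted p = 0.0201). That at 6 h, -0.38, was called with the block only (limma adjusted p = 0.00271, against 0.0837). The 12 h call was lost without the DMSO 12 h array of MP525 (0.0583) or MP570 (0.0594), the LBH589 12 h array of MP567 (0.0707), or MP525 (0.118) or MP567 (0.116) as a whole.

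Msmo1, the methylsterol monooxygenase, fell at 12 h. In DMSO it had 11.33, 11.01 and 11.45 at 6 h and 11.46, 11.30 and 11.49 at 12 h. In LBH589 the values were 11.05, 10.62 and 11.11 at 6 h and 11.08, 10.44 and 10.74 at 12 h. The groups overlapped at 6 h, where MP567 was low in both, and not at 12 h. The 12 h change was -0.66 ± 0.18 (1.58-fold lower, limma adjusted p = 0.0255). At 6 h the change of -0.34 was called with the block only (limma adjusted p = 0.0114, against 0.256). Omitting the DMSO 12 h array from MP525 (0.0727) or from MP570 (0.08), or the LBH589 12 h array from MP567 (0.0888) or from MP570 (0.0688), ended the 12 h call, as did omitting MP525 (0.0716) or MP570 (0.197) as a whole.

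Cyp51, the lanosterol demethylase, had the largest changes of the 11 genes, -0.66 ± 0.29 and -0.83 ± 0.29, yet its DMSO arrays spread with an SD of 0.46 at 6 h. It was called with the block (limma adjusted p = 0.00126 and 0.00018) and not without it (0.164 and 0.0708), except at 12 h without the LBH589 12 h array of MP525 (0.0326) or without MP567 as a whole (0.0437). Lss, lanosterol synthase, had -0.39 and -0.49, also called with the block only (limma adjusted p = 0.0149 and 0.00299). Sqle, the squalene monooxygenase, Nsdhl and Hsd17b7, which help remove methyl groups at the C4 position, were called lower with the block at 12 h only. Their 12 h changes were -0.34, -0.38 and -0.40 (limma adjusted p = 0.0107, 0.00186 and 0.000301 with the block). Tm7sf2, a sterol reductase, went the other way with 0.31 and 0.36, called with the block only (limma adjusted p = 0.0185 and 0.00701). Dhcr7, which makes cholesterol in the last step, had 0.14 and -0.07 and was called in neither fit.

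The regulators showed no call without the block. At the shares of all genes, 0.34 of the 4 genes of this role would be higher and 0.292 lower at 6 h. At 12 h these were 0.365 and 0.363, so the lack of calls lies near the background. Srebf1 had 8.64, 8.70 and 8.83 in DMSO and 8.76, 8.81 and 9.10 in LBH589 at 6 h. The 12 h values were 8.69, 8.81 and 8.82 against 8.82, 8.91 and 8.92. DMSO and LBH589 arrays overlapped at 6 h. They overlapped slightly at 12 h, with 8.823 in DMSO (MP570) above 8.815 in LBH589 (MP525). The changes were 0.16 ± 0.12 and 0.11 ± 0.12 (limma adjusted p = 0.416 and 0.591). The array gave 1 value for the gene, so its transcript forms were not told apart.

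Srebf2, the main factor for sterol genes, had 11.67, 10.70 and 11.61 in DMSO and 11.56, 10.58 and 11.64 in LBH589 at 6 h. At 12 h it had 11.88, 11.01 and 11.68 against 11.83, 10.76 and 11.81. MP567 lay lowest in every group and set the spread. The changes of -0.07 ± 0.38 and -0.06 ± 0.38 were called in neither fit (limma adjusted p = 0.946 and 0.948 without the block, 0.574 and 0.628 with it). Insig1 had 12.53, 12.27 and 12.66 against 12.46, 12.25 and 12.67 at 6 h, and 12.52, 12.46 and 12.57 against 12.52, 12.55 and 12.45 at 12 h (DMSO against LBH589). The groups overlapped at both times, and the changes were -0.03 ± 0.11 and -0.01 ± 0.11 (limma adjusted p = 0.926 and 0.971). Stard4, which carries sterol between membranes, differed from these with -0.34 at 6 h and -0.70 ± 0.23 at 12 h (1.62-fold lower). It was called with the block (limma adjusted p = 0.0343 and 0.00028) and not without it (0.378 and 0.0514). At 12 h it was called without the block when arrays were centred on their medians (0.0442), with the filter at the 50th percentile (0.0414), without the trend (0.0482) and without any of 3 single arrays (0.0251 to 0.0487). Of these arrays, the DMSO 6 h and LBH589 6 h ones of MP567 do not enter the 12 h change. They act only through the spread, which is estimated over all 4 groups.

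Fatty acid genes had the lowest median changes of the 5 roles, -0.45 at 6 h and -0.74 at 12 h. Of 7 tested, 3 fell at 6 h and 5 at 12 h, and none rose. With the block 5 and 6 were called lower. At the shares of all genes, 0.512 of 7 would be lower at 6 h and 0.635 at 12 h, or 1.12 and 1.29 with the block. Fads2, the desaturase that opens the pathway to long polyunsaturated fatty acids, had 13.23, 12.99 and 13.20 in DMSO at 6 h and 12.20, 12.08 and 12.08 in LBH589. By 12 h it had 13.39, 13.17 and 13.18 against 12.19, 12.07 and 12.06. Treated and untreated arrays were far apart and the treated ones nearly alike. Fads2 fell by 1.02 ± 0.08 (2.03-fold, limma adjusted p = 5.09e-05) and by 1.14 ± 0.08 (2.2-fold, limma adjusted p = 1.97e-05). It was called at both times without any single array or tumour.

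Elovl6, which elongates palmitate, had 13.19, 12.70 and 13.14 in DMSO at 6 h and 12.30, 11.86 and 12.49 in LBH589. The 12 h values were 13.21, 12.85 and 13.24 against 12.15, 11.47 and 12.14. No LBH589 array reached a DMSO array, and MP567 was lowest in each group. The change was -0.79 ± 0.21 at 6 h (limma adjusted p = 0.0265) and -1.18 ± 0.21 at 12 h (2.26-fold lower, limma adjusted p = 0.00294). Omitting the DMSO 6 h array from MP525 (0.0925) or from MP570 (0.0835), or the LBH589 6 h array from MP525 (0.0582) or from MP567 (0.091), ended the 6 h call, as did omitting MP525 (0.214) or MP570 (0.134) as a whole. The 12 h call stayed under each of these omissions.

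Scd1, the desaturase that makes oleate, has close relatives in the mouse, and whether its probe set tells them apart was not tested. It had 11.02, 10.66 and 11.19 in DMSO at 6 h and 10.12, 9.66 and 10.48 in LBH589. Values at 12 h were 11.34, 11.12 and 11.62 against 10.69, 9.56 and 10.39. The groups stayed apart, with the widest spread among LBH589 arrays at 12 h (10.21 ± 0.59, mean ± SD, n = 3). Scd1 fell by 1.15 ± 0.28 at 12 h (2.22-fold, limma adjusted p = 0.0155). The 6 h change of -0.87 ± 0.28 was called with the block (limma adjusted p = 0.000189) and not without it (0.0589), except with the filter at the 50th percentile (0.0484), without the LBH589 12 h array of MP525 (0.0459) or MP567 (0.0206), or without MP567 as a whole (0.0251). The LBH589 12 h arrays do not enter the 6 h change, which stayed at -0.87 without either. They act only through the spread, which is estimated over all 4 groups. The 12 h call was lost without the DMSO 12 h array of MP570 (0.0616), and without MP525 (0.0686) or MP570 (0.124).

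Fasn, fatty acid synthase, had 13.05, 13.05 and 12.92 in DMSO at 6 h and 12.40, 12.66 and 12.61 in LBH589. At 12 h it had 13.07, 13.30 and 13.06 against 12.26, 12.56 and 12.40. Its groups did not overlap. The change was -0.45 ± 0.10 (limma adjusted p = 0.00896) and -0.74 ± 0.10 (1.67-fold lower, limma adjusted p = 0.000492). The 6 h call was lost without MP525 (0.106) or MP570 (0.0811) as a whole, and the 12 h call stayed without each array and each tumour.

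Acaca, the cytosolic acetyl-CoA carboxylase that supplies malonyl-CoA to FASN, fell at 12 h. It had 10.77, 10.58 and 10.52 in DMSO and 10.33, 10.26 and 10.44 in LBH589 at 6 h. The 12 h values were 10.77, 10.85 and 10.79 against 10.07, 10.11 and 10.24. The groups were close at 6 h and well apart at 12 h. The change was -0.66 ± 0.10 at 12 h (1.58-fold lower, limma adjusted p = 0.00133), and it was also called without each array and each tumour. The 6 h change of -0.28 was called with the block only (limma adjusted p = 0.0224, against 0.0938). Acly, which makes the acetyl-CoA that both pathways start from, had 0.12 and 0.04 and was called in neither fit. Fads1, the other desaturase of the polyunsaturated pathway, had -0.01 and -0.14, and the 12 h change was called with the block (limma adjusted p = 0.0463, against 0.526). That call was lost with a random block and with the fixed block without MP525 (0.114), MP567 (0.169) or MP570 (0.182).

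The sterol exporter genes had positive changes, with a median of 0.61 at 6 h and 0.44 at 12 h, and Abcg1 rose at both times. Abcg1 had 7.90, 7.84 and 8.28 in DMSO at 6 h and 8.78, 8.76 and 8.91 in LBH589. At 12 h its values were 8.06, 8.17 and 8.02 against 8.58, 8.56 and 8.79. LBH589 arrays lay above DMSO arrays at both times. Abcg1 rose by 0.81 ± 0.13 (1.75-fold, limma adjusted p = 0.00173) and 0.55 ± 0.13 (1.47-fold, limma adjusted p = 0.0116). Leaving out MP525 as a whole ended the call at 6 h (0.0606) and at 12 h (0.103), and leaving out MP570 ended it at 12 h (0.0719). With the block, Abcg1 stayed called without each tumour.

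Abca1, which loads sterol onto lipid-poor apolipoproteins, had 8.10, 7.91 and 7.76 in DMSO and 8.29, 8.59 and 8.10 in LBH589 at 6 h. By 12 h the values were 8.14, 8.38 and 7.68 against 8.28, 8.73 and 8.19. DMSO and LBH589 met at 8.10 at 6 h and overlapped at 12 h, while each tumour was higher in LBH589 at both times. The changes of 0.41 ± 0.20 and 0.33 ± 0.20 were called with the block only (limma adjusted p = 0.0158 and 0.0408, against 0.221 and 0.308). In that fit the 6 h call was lost without MP567 (0.151) or MP570 (0.067), and the 12 h call without MP567 (0.0797) or MP570 (0.271) and with a random block.

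**Figure D2:**
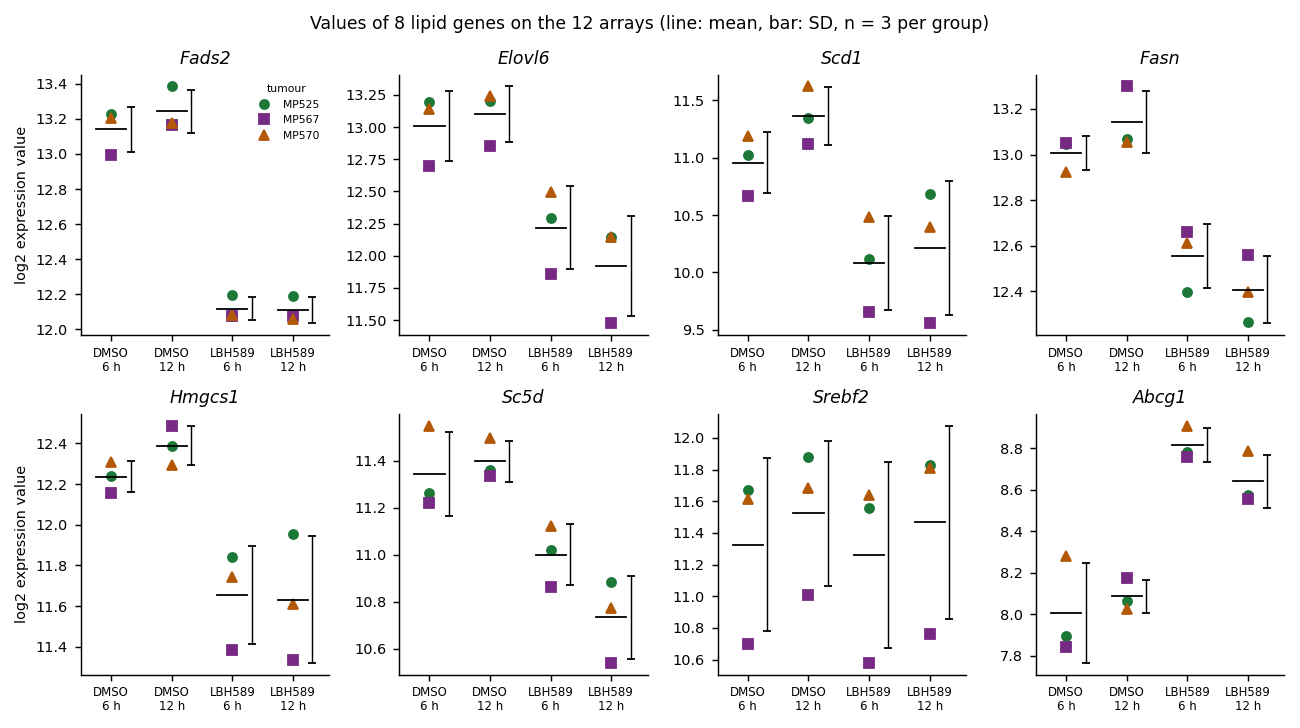
Log2 expression values (y axis, a separate range in each panel that does not start at 0) of 8 genes on the 12 arrays, by treatment and time, with tumours by colour and shape, group means as lines and SDs as bars (n = 3). Fads2, Elovl6, Scd1, Fasn, Hmgcs1 and Sc5d are lower in LBH589, Abcg1 is higher, and Srebf2 separates MP567 from the other tumours in all 4 groups.

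Of the 29 genes, 26 had a lower change at 12 h than at 6 h, beside 49.5% of all tested genes, with a median difference of -0.19 beside 0.00. This count was 20 without the DMSO 6 h array of MP567 and 21 without the LBH589 12 h array of MP567. The median was -0.07 without the DMSO 6 h array of MP567, -0.06 without the LBH589 12 h array of MP567, -0.09 without the LBH589 6 h array of MP570, -0.12 without the LBH589 6 h array of MP525 and -0.08 without MP567 as a whole. For no single gene did the difference between the times pass the test (0 of 29 and 0% of all genes with limma, 1 of 29 at an unadjusted p under 0.05). With the block it was again 0 of 29 (0.0107% of all genes), with 9 of 29 at an unadjusted p under 0.05. The 12 h and 6 h falls therefore cannot be ordered gene by gene.

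Within DMSO, 28 of the 29 genes were higher at 12 h than at 6 h, with a median of 0.14 (0.00 for all genes, of which 51.2% were above 0). Without the DMSO 6 h array of MP567 the count was 17 and the median 0.03, and without MP567 as a whole they were 22 and 0.07. None passed the test without the block (0.0214% of all genes called, limma, 1 of 29 at an unadjusted p under 0.05). With the block, Fdps rose by 0.33 (limma adjusted p = 0.015, 0.311% of all genes called), but the random block did not call it. Pmvk (0.46), Scd1 (0.41) and Lss (0.34) had the largest other changes, which did not pass.

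Under LBH589, 17 of the 29 genes were lower at 12 h than at 6 h. That count was 11 with quantile normalization or centring on reference genes, 26 without the LBH589 6 h array of MP567 and 10 without the LBH589 12 h array of MP567, so no direction can be read from it. None was called without the block (0% of all genes, limma, 0 of 29 at an unadjusted p under 0.05). With the block 1 was called, Elovl6, which fell by 0.30 (limma adjusted p = 0.041, 1.99% of all genes called), and again the random block did not call it. The LBH589 effect at 12 h and the change within DMSO share the DMSO 12 h arrays and are not independent.

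**Figure D3:**
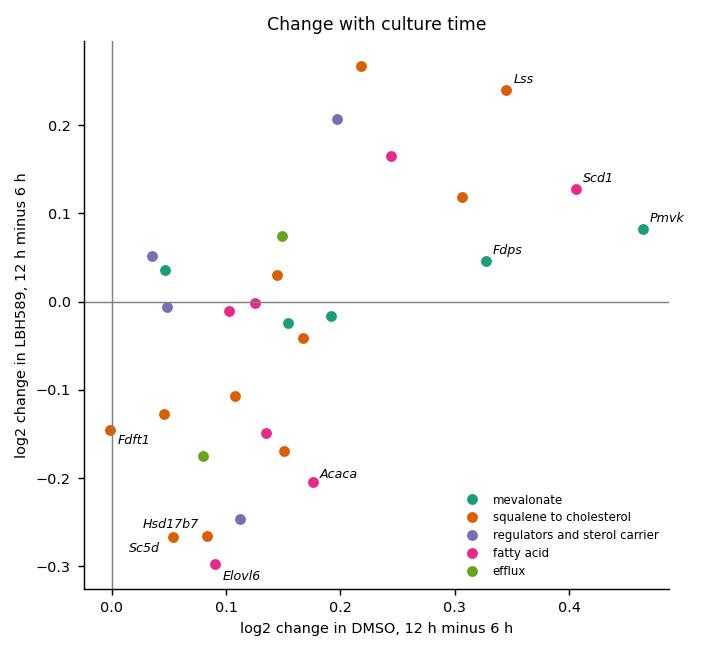
Log2 change from 6 h to 12 h of 29 genes in DMSO (x axis) and in LBH589 (y axis), coloured by role, n = 3 arrays per group and time. In DMSO 28 genes lie right of 0, and in LBH589 17 lie below 0 and 12 above it.

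The tumours differed in the level of most of these genes. By a limma F test with the 4 groups in the model, 23 of the 29 were called for tumour (37.4% of all tested genes). The 4 cultures of a tumour are not separate tumours, so the test compares these 3 tumours only. MP567 had the lowest mean in 20 of the 23. How often MP567 was lowest among all genes called for tumour was not counted, so this count has no background. Srebf2 had means of 11.73, 10.76 and 11.69 over the 4 arrays of MP525, MP567 and MP570 (limma adjusted p = 2.64e-07). Sqle had 12.12, 11.31 and 12.17 (limma adjusted p = 4.68e-06), Nsdhl 12.45, 11.89 and 12.59, and Elovl6 12.71, 12.22 and 12.76 in the same order. Hsd17b7 stood apart in another way, high in MP525 with 12.16 against 10.76 and 11.14 (limma adjusted p = 7.43e-09). Fasn and Abca1 were highest in MP567. Hmgcs1, Ebp, Insig1, Srebf1, Acaca and Abcg1 were not called for tumour.

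**Figure D4:**
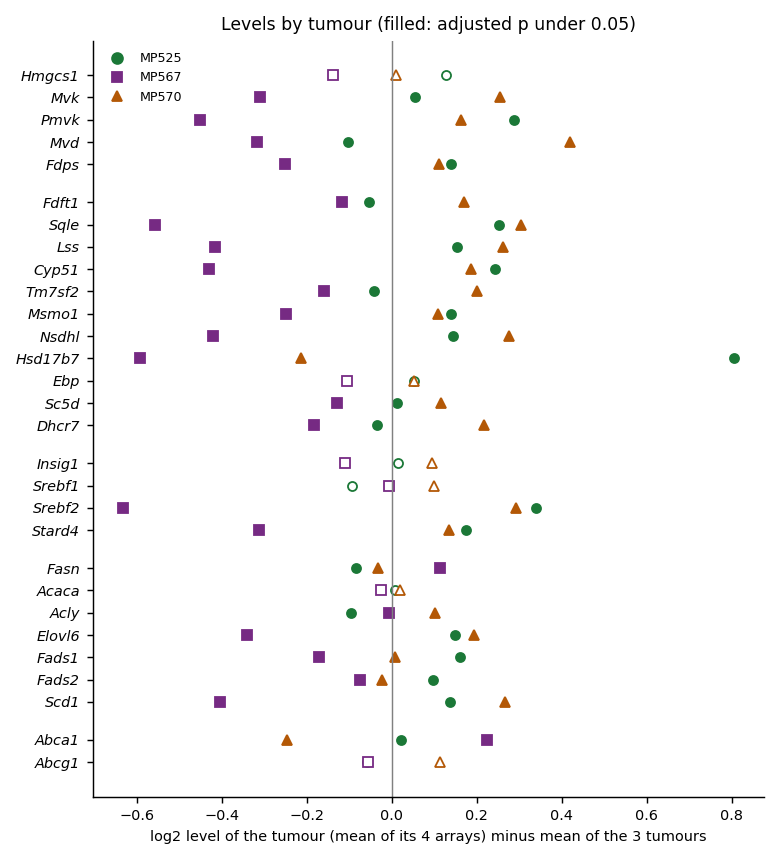
Mean log2 level of 29 genes in each tumour (4 arrays each) minus the mean of the 3 tumours (x axis), with genes called for tumour filled. MP567 (purple squares) lies lowest in 20 of the 23 called genes, and Hsd17b7 in MP525 lies farthest to the right.

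The size of the LBH589 effect differed between tumours for 1 of the 29 genes, Hmgcs1 (limma F test, adjusted p = 0.0284, 4.35% of all tested genes called), a count that is not above the share of all genes. The call was lost with arrays on a common median, without the trend and without any of 7 single arrays. Its changes at 6 h and 12 h were -0.40 and -0.43 in MP525, -0.77 and -1.15 in MP567, and -0.57 and -0.69 in MP570. At 6 h, 17 genes were negative and 7 positive in all 3 tumours, and at 12 h 20 and 5. The share of all tested genes with the same sign in all 3 tumours was not counted, so these counts have no background. The median 12 h change of the 29 genes was -0.38 in MP525, -0.63 in MP567 and -0.39 in MP570, beside all-gene medians of -0.03, -0.02 and 0.07. MP567 had the lowest change of the 3 tumours in 21 of the 29 genes at 12 h and in 11 at 6 h. The 12 h count includes genes that rose in MP567, such as Mvk (0.12) and Abcg1 (0.39). Each change rests on 1 array per treatment and time, and the same count over all tested genes was not made. Scd1 (-0.66, -1.57 and -1.23) and Stard4 (-0.29, -1.07 and -0.75) had wide 12 h ranges, for which the test of the difference was not passed (limma adjusted p = 0.207 and 0.18).

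**Figure D5:**
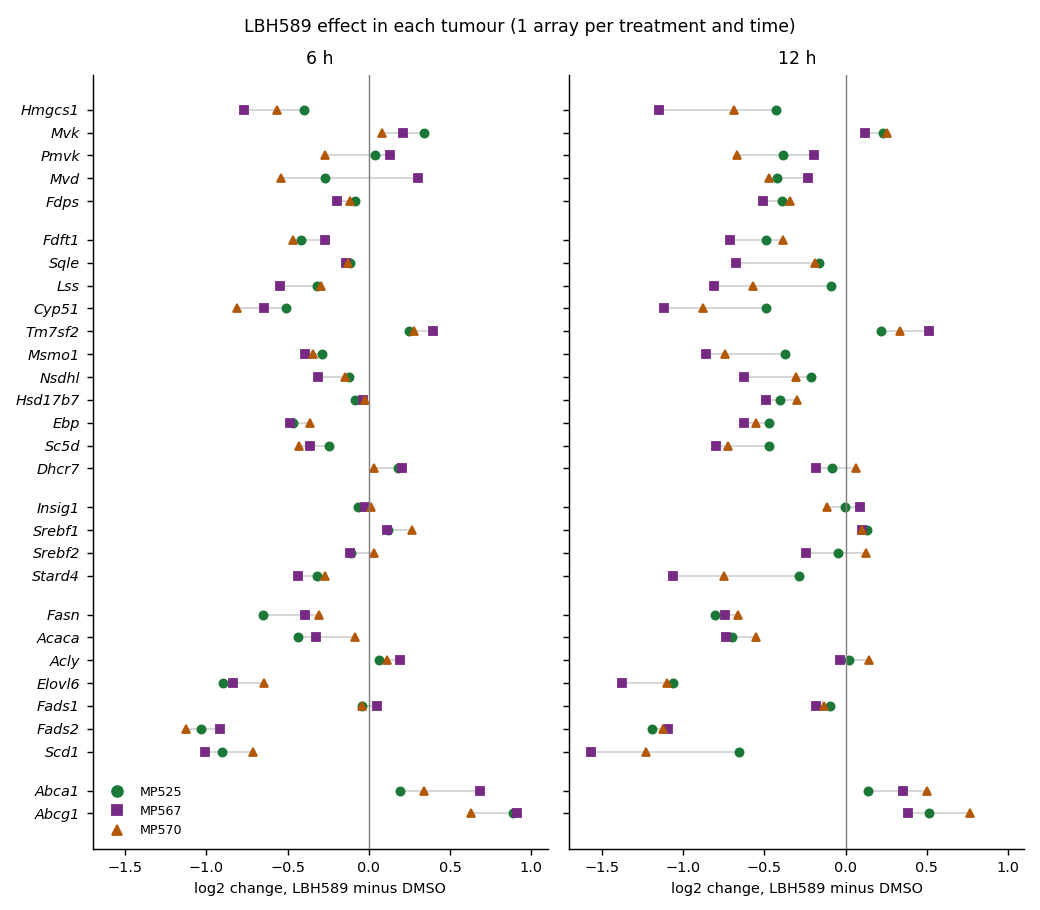
Log2 change (LBH589 minus DMSO, x axis) of 29 genes in each tumour at 6 h (left) and 12 h (right), each point from 1 pair of arrays. At 12 h MP567 lies farthest left in 21 genes, and Fads2 has nearly the same change in all 3 tumours.

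Other genes of the pathways were taken from lists chosen with earlier results known. As background, at the shares of all tested genes called without the block, a list of 11 genes would hold 0.934 higher and 0.804 lower at 6 h, and 1 and 0.998 at 12 h. Among 11 tested genes that process or degrade SREBP factors, 1 rose and 2 fell at 6 h, and 1 rose and 3 fell at 12 h (3 higher and 4 lower, then 1 and 4, with the block, where the background would give 1.98 and 1.76, then 2.05 and 2.04). Mbtps2, the site-2 protease that releases SREBP from the membrane, fell by 0.59 and 0.64 (limma adjusted p = 0.0251 and 0.0154). Spring1, needed for SCAP function, rose by 0.58 and 0.60 (limma adjusted p = 0.00881 and 0.00662), and Erlin1 fell by 0.48 and 0.51. Rnf145, a ubiquitin ligase of sterol control, fell by 0.77 at 12 h (limma adjusted p = 0.0485). Scap had 0.11 and 0.15 and was called in neither fit.

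Among sterol handling and LXR-linked genes, more rose than fell. Of 19 tested, 7 rose and 1 fell at 6 h, and 5 rose and 1 fell at 12 h (10 and 3, then 9 and 4, with the block), and the median change was 0.29 and 0.23. At the shares of all genes, 1.61 would be higher and 1.39 lower at 6 h, and 1.73 and 1.72 at 12 h (3.42 and 3.04, then 3.53 and 3.52, with the block). Cyp46a1, the neuronal cholesterol hydroxylase that makes an exportable oxysterol, rose by 1.51 ± 0.14 and 1.53 ± 0.14 (limma adjusted p = 9.38e-05 and 6.23e-05). Mylip, an LXR target that degrades lipoprotein receptors, rose by 1.05 and 1.04, and Osbpl2, an oxysterol-binding protein gene, by 1.09 and 0.72. Gramd1b, which moves cholesterol from the plasma membrane inward, fell by 0.91 and 1.09. Nr1h3, which encodes LXR alpha, had 0.04 and 0.08 and was called in neither fit.

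Of 11 genes on the branches from farnesyl diphosphate to isoprenoids, 2 rose and 1 fell at each time (2 and 3, then 3 and 4, with the block). The background for 11 genes is that given for the SREBP list, and no count lay more than 2 genes from it. Dhdds, a subunit of the dolichol-making enzyme, rose by 0.68 and 0.69, and Icmt, which methylates prenylated proteins, by 0.69 and 0.64. Fntb, the farnesyltransferase beta subunit, fell by 0.57 and 0.59. Of 2 further sterol genes tested, Lbr, which has the same reductase activity as TM7SF2, fell by 0.58 at 12 h (limma adjusted p = 0.0177).

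Further fatty acid and glycerolipid genes were mixed. Of 30, 3 rose and 3 fell at 6 h, and 4 rose and 4 fell at 12 h (12 and 5, then 10 and 6, with the block). At the shares of all genes, 2.55 would be higher and 2.19 lower at 6 h, and 2.74 and 2.72 at 12 h (5.4 and 4.8, then 5.58 and 5.55, with the block), so the counts without the block lie near the background. Hacd1, a dehydratase of the elongation cycle in which ELOVL6 also acts, fell by 1.41 ± 0.14 and 1.83 ± 0.14 (limma adjusted p = 0.000125 and 2.53e-05). Me1, malic enzyme, a source of NADPH for lipid synthesis, fell by 1.13 and 1.27. Mlxipl, which encodes the carbohydrate-responsive factor ChREBP, rose by 1.20 at both times (limma adjusted p = 0.000463 and 0.000377), and Fads3 by 1.02 at 12 h (limma adjusted p = 0.019).

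Markers of other cells were measured in the same arrays. Of 10 microglia and macrophage genes, 0 were called at either time (limma), and their mean level per array over both times was 7.23 to 7.64 in DMSO and 7.26 to 7.47 in LBH589. Of 8 oligodendrocyte genes 1 rose at each time (Cnp), of 7 astrocyte genes 1 (Aldoc), of 6 endothelial genes 1 (Kdr), and of 6 fibroblast genes 0 were called. At the shares of all tested genes, 0.679 oligodendrocyte, 0.594 astrocyte and 0.509 endothelial genes would be higher at 6 h. At 12 h these were 0.73, 0.639 and 0.548, so the counts lie near the background. With the block more were called: 3 microglia and macrophage genes at 12 h (C1qb higher with 0.53, Ptprc and Itgam lower with -0.71 and -0.46) and 0 at 6 h. Of oligodendrocyte genes 2 were then higher at each time, and of astrocyte genes 1 was higher and 1 lower at 6 h and 2 and 2 at 12 h. Of endothelial genes 1 was higher at 6 h and 3 at 12 h, and of fibroblast genes 0 at 6 h, with 1 higher and 1 lower at 12 h. With the block, the background at 12 h would be 1.86 higher and 1.85 lower of the microglia and macrophage genes. It would be 1.49 and 1.48 for oligodendrocyte, 1.3 and 1.29 for astrocyte, and 1.12 and 1.11 for endothelial and for fibroblast genes. Mean levels in DMSO and LBH589 over both times were 7.77 to 8.21 and 7.90 to 8.32 for oligodendrocyte, 7.60 to 8.11 and 7.66 to 8.17 for astrocyte, and 7.32 to 7.99 and 7.69 to 8.18 for endothelial genes. For fibroblast genes they were 7.46 to 8.53 and 7.40 to 8.47. Of 8 progenitor and tumour genes, Msi1 fell at both times (-1.02 and -1.04) and Prom1 (-0.98) and Top2a (-0.63) at 12 h, while Myc had 0.09 and 0.21 and was called in neither fit. With the block, Nes (0.77 and 1.19) and Olig2 (0.63 and 0.42) were called higher at both times, Prom1 (-0.56) also lower at 6 h and Mki67 (-0.44) at 12 h. For these 8 genes the background at 12 h would be 0.73 higher and 0.726 lower, or 1.49 and 1.48 with the block. The mean level of the 8 genes per array was 9.46 to 9.89 in DMSO and 9.49 to 9.57 in LBH589 at 6 h, and 9.48 to 9.80 and 9.34 to 9.65 at 12 h. What part these shifts have in the lipid gene changes was not tested.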

How the data were processed

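Total RNA of 12 cultures was measured on Affymetrix whole-transcript arrays, 1 array each, after extraction with a Qiagen kit and biotin labelling per the labels. The values the authors deposited are on a log2 scale, read from their range of 1.50 to 14.5. Agilent Feature Extraction 10.7.3.1, made for other arrays, is the single tool in the submitters' processing notes. How the values were normalized is not stated there. Array medians were 7.10 to 7.21, and no further scaling was applied. Of 41345 probe sets, 23521 named 1 gene, 1814 several (not used here) and 16010 were not listed. RefSeq gave the gene name of 23328 probe sets and the array annotation that of 193. Genes above the array's 25th percentile on at least 3 arrays were tested, 18652, and 3528 were left out. Promoter sequences are RefSeq's.

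limma 3.58.1 in R 4.3.3 fitted 4 group means (lmFit, eBayes with trend, 8 residual degrees of freedom), with F tests for tumour and for drug by tumour (4 residual degrees of freedom). Tests were two-sided, with Benjamini-Hochberg adjustment over all tested genes. Tumours pair the arrays, since the labels give every group 1 array of each tumour. Deviations from group means correlated at 0.450 to 0.805 in 18 same-tumour pairs and at -0.51 to -0.0577 between tumours across groups. The deviations within a group sum to 0, so positive same-tumour correlations by themselves pull those between tumours below 0. The fit that adds tumour as a fixed block, with 6 residual degrees of freedom, is given beside the unblocked fit for the 32 genes and the lists. Members and lists were chosen with earlier results of these data known. Array values are given for up to 5 called genes of each role with the largest changes and always for Srebf1, Srebf2, Insig1, Abca1, Abcg1 and Scd1, and up to 4 called genes per further list are named. Some genes called only with the block, and Scap, Nr1h3 and Myc, were named after their values were seen. Alternatives were blocks, scalings, filters at no or the 50th percentile, probe set rules, no trend, and omitted arrays or tumours. The unblocked and fixed-block fits were also run on simulated data, whose means and spreads were taken from these arrays.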

Additional observations from a re-analysis of the deposited data

Results flagged for a closer look

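The LBH589 effect on Hmgcs1 differed between the tumours by a limma F test of the drug-by-tumour terms (adjusted p = 0.0284), the 1 such call among 29 genes where 4.35% of all tested genes were called. Its 12 h change was -1.15 in MP567, -0.69 in MP570 and -0.43 in MP525, and the fall had the same direction in all 3 tumours at both times. Centring arrays on their medians ended the call, as did fitting without the mean-variance trend, and it was lost without any of 7 single arrays: the DMSO 6 h, DMSO 12 h and LBH589 12 h arrays of MP525, the DMSO 12 h, LBH589 6 h and LBH589 12 h arrays of MP567, and the LBH589 12 h array of MP570.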

How the results depend on the processing

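Without a replicate block, 6 of the 29 genes were called at 6 h and 11 at 12 h. With tumour as replicate block these were 16 and 23, and with tumour as a random block 14 and 16. Over all genes the block called 6333 and 6928 against 2948 and 3395, and the random block 5493 and 6087. The block also gave 1 call for time in DMSO and 1 for time in LBH589 where there were 0 without it. It ended no call of a drug effect on these genes.

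Leaving out single arrays or tumours, counts ran from 1 to 14 at 6 h and from 5 to 21 at 12 h, where the upper values come from leaving out a tumour with the replicate block, an alternative added after seeing the data. Leaving out all arrays of MP525 gave 1018 and 1682 calls over all genes, and of MP570 879 and 1265. Omitting single LBH589 6 h arrays gave 1929 (MP525) and 1811 (MP570) calls over all genes at 6 h. The 6 h count fell to 3 genes without the DMSO 6 h array of MP525 or of MP570, or the LBH589 6 h array of MP567. For drug by tumour the count of 1 became 0 with arrays centred on their medians or without the trend, and 0 to 3 without single arrays. The 23 calls for tumour became 18 to 24 under all alternatives tried. Over the 29 genes' drug effects, 0 reversed. Of the 17 calls made without a block, 12 were lost under at least 1 omission of an array or tumour, in 42 combinations of call and omission. The blocks, scalings, filters, probe set rules and the fit without trend ended none of the 17. Leaving out an array leaves the tumours unevenly represented. With 3 arrays a group and an unknown normalization, small changes cannot be resolved.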
